A study of Mus musculus with 12 samples.

Results

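The 5 mouse Ikaros family genes Ikzf1 to Ikzf5 were each followed probe by probe on 12 one-colour arrays of B cells sorted by IL-10 secretion. The genes were chosen by name after results of these arrays were known. Which of the measured sort and HDM differences they were selected on is not recorded, so all of these differences count as used and are given as a description. Every gene spot named for one of the 5 genes, of 34821 gene names on the array, was taken, and every probe was kept separate. This gave 11 of the 55681 gene probes of the array: 3 for Ikzf1, 2 for Ikzf2, 1 for Ikzf3, 3 for Ikzf4 and 2 for Ikzf5, each printed as a single spot. Per the labels, the cells were B cells from the spleens of female Balb/c mice, which were either controls or allergic to house dust mite (HDM). All cells were activated for 2 days with a CD40 agonist and received LPS, a bacterial cell wall product, for the last 5 hours, so no group was unstimulated. They were stained with a secretion assay for IL-10, an immunosuppressive cytokine, and sorted into secreting (IL-10+) and non-secreting (IL-10-) cells. Both fractions of both kinds of mice were measured on 3 arrays each, which makes 4 groups. Whether replicate samples are separate animals or cultures is not given in the labels, and the spread behind each p-value may therefore be technical. The labels used here give no mouse age and no HDM dose.

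Ikaros family proteins are zinc finger transcription factors of lymphocytes. An N-terminal group of fingers binds DNA, and a pair of fingers at the C terminus joins family members to each other as homodimers and heterodimers. Ikaros (Ikzf1) and Aiolos (Ikzf3) act throughout B cell development and activation, largely through the NuRD chromatin remodelling complex, while Helios (Ikzf2) and Eos (Ikzf4) are best known in regulatory T cells. Pegasus (Ikzf5) is the most divergent member.

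The sequences of the C-terminal finger probes are shown first because these 2 probes had the largest sort differences of the family in HDM mice and on average, though not in control mice. A_55_P2023612 starts at base 1726 of the Ikzf1 transcript and lies at chr11:11669493-11669552 on the plus strand of mm9. A_55_P1979682 starts at base 1860 of the Ikzf4 transcript and lies at chr10:128071131-128071190 on the minus strand. Both are coding sequence for the family's C-terminal, dimerising zinc finger region. Capitals mark the positions at which the 2 probes differ.
Ikzf1 A_55_P2023612: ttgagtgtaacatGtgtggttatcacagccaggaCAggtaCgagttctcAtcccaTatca
Ikzf4 A_55_P1979682: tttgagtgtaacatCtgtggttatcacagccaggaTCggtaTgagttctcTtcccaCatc
Over 59 aligned bases the probes matched at 53 and differed at 6, an identity of 89.8%, and the longest run without a mismatch was 20 bases. Counted from 1 at the 5′ end of the Ikzf1 probe, the substitutions from Ikzf1 to Ikzf4 were G14C, C35T, A36C, C41T, A50T and T56C. Both probes are 45% G and C. Against all other gene probes of the array on either strand, the next best match of the Ikzf1 probe was 32 of 60 bases, with a Dolk probe on the opposite strand, and that of the Ikzf4 probe was 34 of 59 bases, with a Stoml1 probe on the opposite strand. No other family probe matched any probe of the array at more than 35 bases. Whether Ikzf1 and Ikzf4 RNA can be told apart by these 2 probes was not tested.

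The other 9 probes are identified by their first 30 bases, so that each can be told from the finger probes of the same gene.
Ikzf1 A_55_P2023607: cagaaatttcttggtaagagttaaatgttt
Ikzf1 A_66_P124139: aggaagctcatgtgcatctggtgctatggc
Ikzf2 A_66_P122551: tacctgaataacatagtgcaggtcaaacaa
Ikzf2 A_52_P413515: ctcaggaacaagcatataatttgtccaaga
Ikzf3 A_55_P2113598: aacattcctcctcaaacacacaaatagctt
Ikzf4 A_55_P2119917: ttcgtgagaccatgcaggaggaggcatagc
Ikzf4 A_55_P1979674: ccatcccactctctgcttctttgagattca
Ikzf5 A_66_P123989: tgtattgtgtaataagtagcttactctgaa
Ikzf5 A_52_P582261: gttgagaaaagttgaccatgcactatttat
In Ikzf1, A_66_P124139 (chr11:11672828-11672887, plus strand) starts 3335 bases after the finger probe, on the same annotated transcript. A_55_P2023607 (chr11:11661344-11661403, plus strand) is assigned to a different Ikzf1 transcript and starts 8149 bases before the finger probe in the genome. In Ikzf4, A_55_P2119917 (chr10:128069604-128069663) and A_55_P1979674 (chr10:128069521-128069580), both on the minus strand, start 1527 and 1610 bases after the finger probe. The Ikzf2 probes lie at chr1:69584008-69584067 and chr1:69577853-69577912, the Ikzf3 probe at chr11:98326176-98326235, and the Ikzf5 probes at chr7:138533886-138533945 and chr7:138532770-138532829, all on the minus strand. For every pair of probes assigned to the same transcript, the distance along the genome equalled the distance along the transcript, so no intron lies between them. Exon and UTR boundaries of mm9 were not used here.

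A level below is the log2 of a spot's processed signal over its array's 75th percentile, and a difference is between group means of such levels, with its standard error (SE). Levels of different probes are not compared with each other. Detection means that the scanner software marked the spot as well above background. Each array had 47.7% to 62.4% of its gene spots detected and no spot was saturated. The third IL-10- HDM array stood apart, its mean correlation with the remaining 11 being 0.742, while each of these had 0.841 to 0.879. The IL-10+ arrays and IL-10- control arrays 1 and 2 were on slide 1, and IL-10- control array 3 and the 3 IL-10- HDM arrays on slide 2. In HDM mice, slide and sort therefore cannot be told apart. Il10, the check of the sort, was higher in IL-10+ cells by 7.59 (SE 0.838, adjusted p = 0.0124). The B cell marker Ms4a1, which encodes CD20, was detected on all 12 arrays. So were 4 of 5 probes for the T cell genes Cd3d, Cd3e, Cd4 and Foxp3, the exception being Cd3d, detected on 2. The NK cell probe Ncr1 A_51_P500882 and the monocyte probes Csf1r A_55_P2025073 and A_55_P2025078 were also detected on all 12. Csf1r A_52_P602091 was detected on 4. Of a longer list of 17 T cell marker probes, 10 were kept for testing. Of all 55681 gene probes, 19121 were kept for testing and detected on all 12 arrays.

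Of the 11 family probes, 8 were detected on at least 3 arrays and were tested, covering Ikzf1, Ikzf3, Ikzf4 and Ikzf5. Both Ikzf2 probes were detected on 0 of 12 arrays, with levels from -6.63 to -5.21 on A_66_P122551 and from -6.66 to -5.93 on A_52_P413515. Values this dim carry no order, and Helios RNA was not detectable with these probes in any group. The Ikzf4 probe A_55_P1979674 was also detected on 0 of 12 arrays, at levels of -6.38 to -4.38. Of the tested probes, Ikzf3 A_55_P2113598 and Ikzf5 A_52_P582261 were detected on all 12 arrays. The others were detected on 9 to 11 arrays, and 10 of the 11 missing detections fell in IL-10- cells. Of those 10, all but that of Ikzf1 A_66_P124139 on control array 2 were on IL-10- HDM arrays. The third IL-10- HDM array was also poor over all tested probes, with 67.7% detected, against 74.5% to 88.9% on the other arrays.

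**Figure D1:**
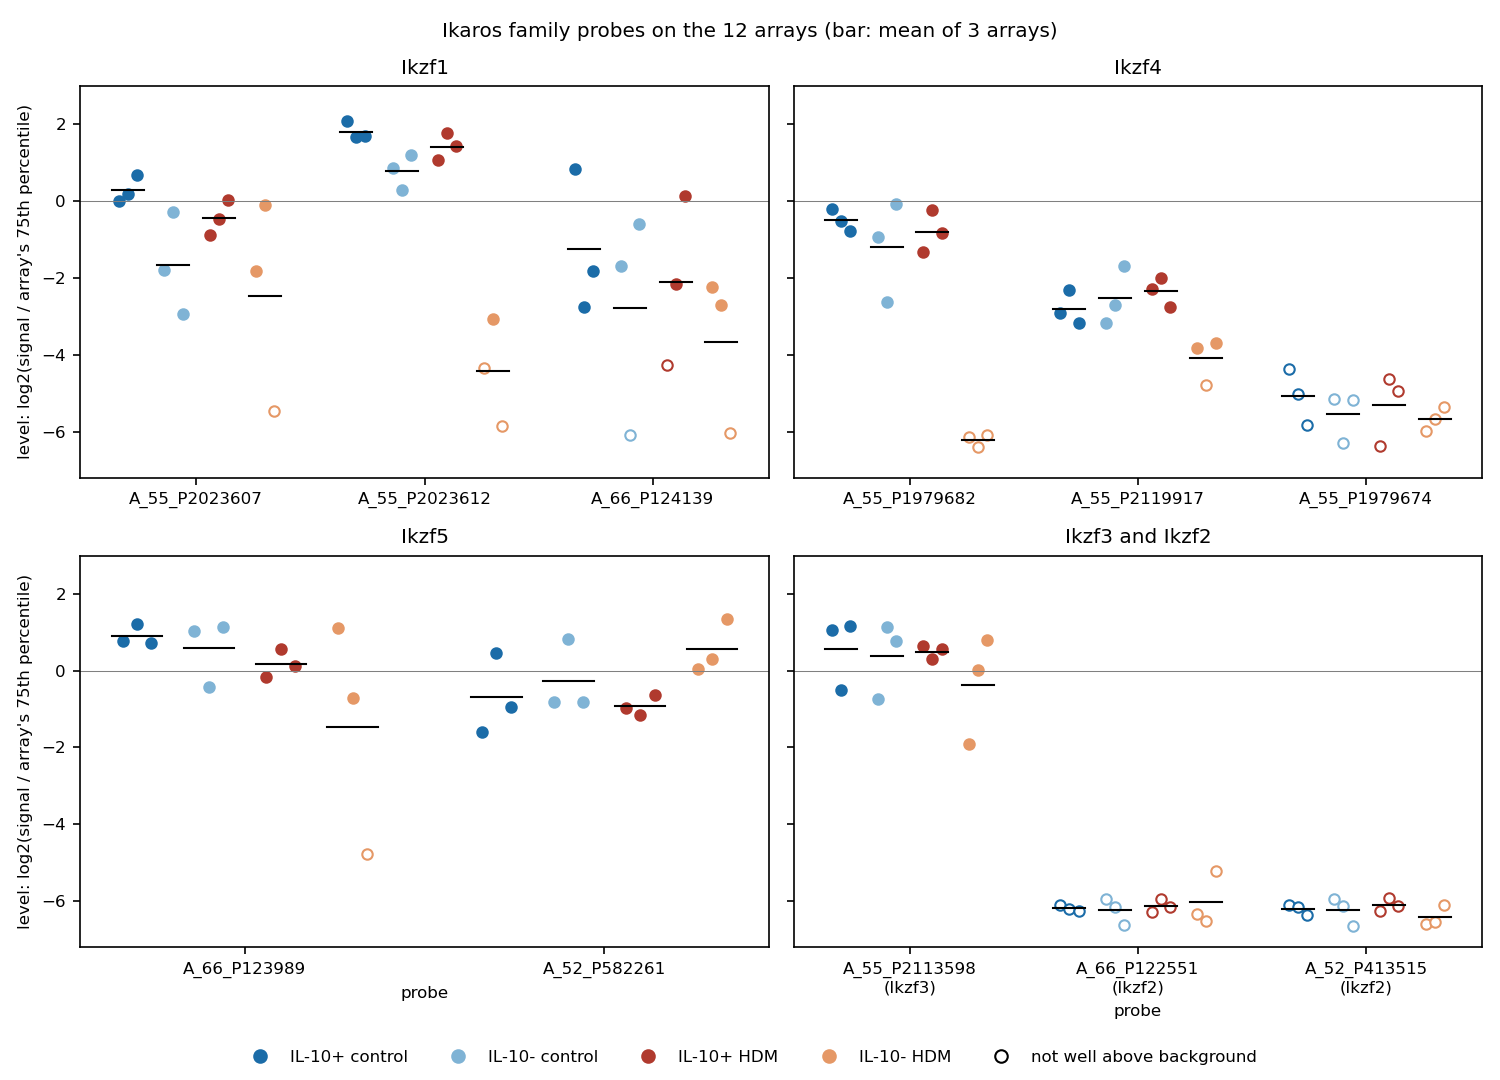
Level of each Ikaros family probe (y axis, log2 of signal over the array's 75th percentile) on each of the 12 arrays, by probe (x axis) and group (colour); bars are means of 3 arrays and open circles are spots not well above background. The finger probes of Ikzf1 (A_55_P2023612) and Ikzf4 (A_55_P1979682) drop in IL-10- HDM cells, to means of -4.43 and -6.21, while the neighbouring Ikzf1 and Ikzf4 probes drop less or are scattered.

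The Ikaros finger probe was high in both IL-10+ groups and lost most of its signal in IL-10- HDM cells. On A_55_P2023612, the level was 2.09, 1.66 and 1.69 in the 3 IL-10+ control arrays and 1.06, 1.77 and 1.43 in the 3 IL-10+ HDM arrays. It was 0.85, 0.29 and 1.21 in IL-10- control cells and -4.36, -3.08 and -5.85 in IL-10- HDM cells, where only array 2 was detected. Every IL-10+ array thus lay above every IL-10- array of the same kind of mouse, by little in control mice and by far in HDM mice. Such a separation in this direction was seen in 4.83% of all tested probes in control mice and in 12.1% in HDM mice. The group means were 1.81 ± 0.241 (SD, n = 3) and 0.78 ± 0.463 (n = 3) in control mice, and 1.42 ± 0.355 (n = 3) and -4.43 ± 1.385 (n = 3) in HDM mice, in the order IL-10+ and IL-10-.

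The Eos finger probe followed the same group pattern. On Ikzf4 A_55_P1979682, the level was -0.20, -0.50 and -0.78 in IL-10+ control cells and -1.33, -0.24 and -0.84 in IL-10+ HDM cells. It was -0.92, -2.61 and -0.08 in IL-10- control cells, within and around the IL-10+ range. In IL-10- HDM cells it was -6.14, -6.40 and -6.10, with no array detected, so the levels there are at the floor of the array. A detection bound therefore set the other group's mean against the lowest signal that was detected on each dim array. By this bound IL-10+ HDM cells were higher by 3.42 on the log2 scale, and IL-10- control cells by 3.02, which is 8.11-fold. The bounds have no SE, hold for this processing only and are not strict. On IL-10- HDM array 1, the undetected Ikzf1 finger signal of -4.36 lay above the array's lowest detected signal of -4.40. With normexp background correction, the fitted sort difference in HDM mice was 1.65. HDM minus control in IL-10- cells was then -1.43.

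Both probes were called for the sort in HDM mice, and since the family was picked with results of these arrays known, this is a description. In HDM mice, IL-10+ minus IL-10- was 5.85 (SE 0.614, adjusted p = 0.0105) for the Ikzf1 probe and 5.41 (SE 0.587, adjusted p = 0.0105) for the Ikzf4 probe. These fitted values take signals that were not detected at face value, on 2 of 3 IL-10- HDM arrays for Ikzf1 and on all 3 for Ikzf4. The detection bound for Ikzf4 was 3.42. Of all tested probes, 0.197% were called in that comparison, at an adjusted p under 0.05 over all probes, and 2 of the 8 tested family probes were. In control mice the differences were 1.03 (SE 0.614, adjusted p = 1) and 0.71 (SE 0.587, adjusted p = 1), and 0 of 8 were called, against 0.0159% of all. Averaged over both kinds of mice, they were 3.44 (SE 0.434, adjusted p = 0.0155) and 3.06 (SE 0.415, adjusted p = 0.0189), and 2 of 8 were called, against 0.345% of all. Over the 6 IL-10+ and 6 IL-10- arrays, the 2 sides overlapped for both probes. Testing required detection on at least 3 arrays, so a tested probe that is dim in a group is brighter elsewhere by construction. The 8 probes therefore do not stand for the family's 11. Both finger probes were detected on all 3 arrays of each group except IL-10- HDM.

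**Figure D2:**
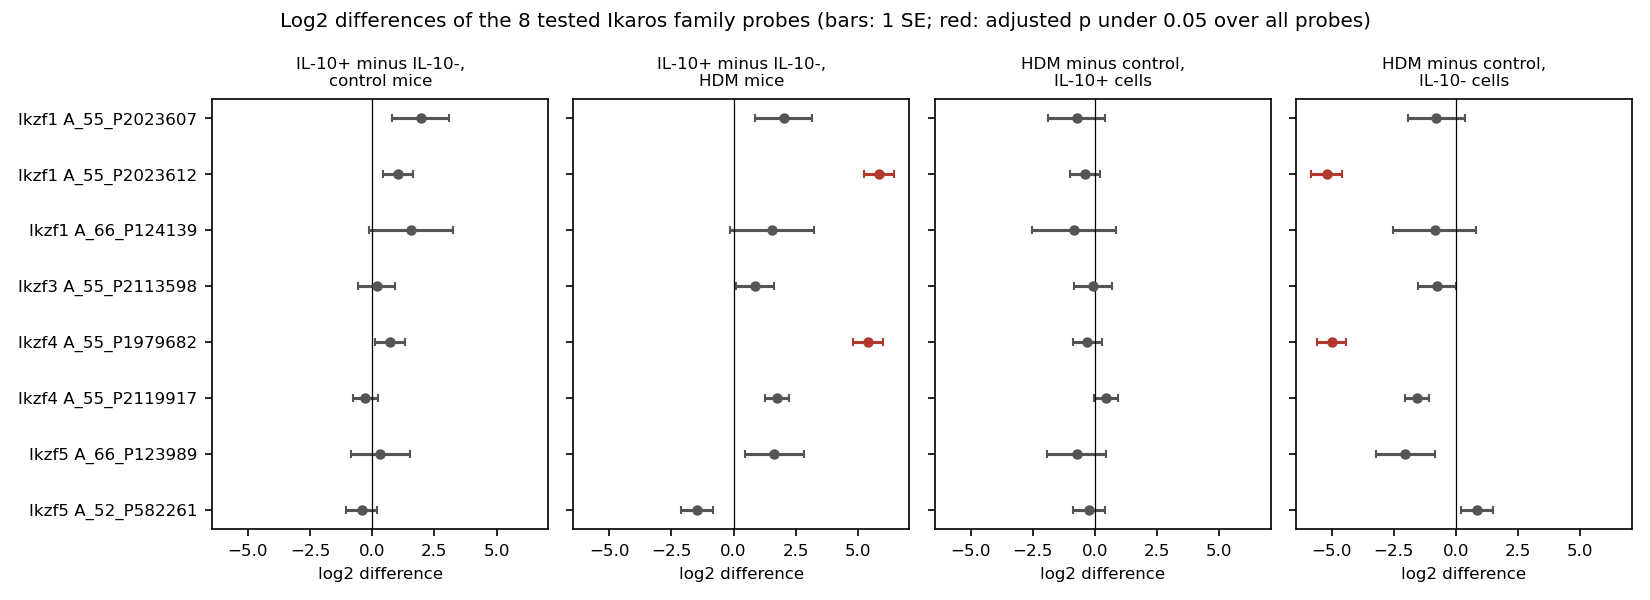
Log2 difference (x axis) of each tested Ikaros family probe (y axis) in 4 comparisons, with 1 SE; red marks an adjusted p under 0.05 over all tested probes. The red points are the 2 finger probes, at 5.85 and 5.41 for the sort in HDM mice and at -5.21 and -5.01 for HDM against control in IL-10- cells.

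The finger probes were lower in HDM than in control mice in IL-10- cells, while the smaller differences in IL-10+ cells did not pass the test. In IL-10- cells, HDM minus control was -5.21 (SE 0.614, adjusted p = 0.0224) for Ikzf1 A_55_P2023612. For Ikzf4 A_55_P1979682 it was a fitted -5.01 (SE 0.587, adjusted p = 0.0224), with a detection bound of 3.02 in size. In this comparison 2 of 8 family probes were called, against 0.0717% of all. This comparison and the sort in HDM mice share the 3 IL-10- HDM arrays, so they are not independent. In IL-10+ cells the same differences were -0.39 (SE 0.614, adjusted p = 1) and -0.31 (SE 0.587, adjusted p = 1), and 0 of 8 were called, against 0.00531% of all. The difference of the sort contrast between HDM and control mice was 4.82 (SE 0.868) for the Ikzf1 probe and 4.70 (SE 0.83) for the Ikzf4 probe. Its adjusted p was 0.282 for both, with limma calling 0 of 37649 probes for this term and 2444 at an unadjusted p under 0.05. The unadjusted p-values of the 2 probes were 0.00023 and 0.000198. In these sorted populations, fewer cells with the RNA and less RNA per cell cannot be told apart.

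Some arrays and the slide decided whether the 2 probes were called, though not the sign of their differences. Without IL-10+ HDM array 2, the sort in HDM mice gave 5.67 (adjusted p = 0.0589) for the Ikzf1 probe and 5.13 (adjusted p = 0.062) for the Ikzf4 probe. Without IL-10+ HDM array 3 both had an adjusted p of 0.0536. The averaged call of Ikzf4 was lost without that array 2 (2.92, adjusted p = 0.0644) or without IL-10+ control array 3 (3.13, adjusted p = 0.0506). For HDM in IL-10- cells, both calls were lost without IL-10- control array 1 (adjusted p = 0.0971 for both) or 3 (adjusted p = 0.0812 for Ikzf1 and 0.0696 for Ikzf4). The Ikzf1 call was also lost without IL-10- control array 2 (adjusted p = 0.0754), and that of Ikzf4 without IL-10- HDM array 3 (adjusted p = 0.0583). With the slide as a block, the sort difference in HDM mice was 6.49 (adjusted p = 0.253) and 7.10 (adjusted p = 0.159), and that of HDM in IL-10- cells -5.64 (adjusted p = 0.205) and -6.13 (adjusted p = 0.12). Only IL-10- control cells lay on both slides, so every slide block value rests on their array 3 against their arrays 1 and 2. Within slide 2 alone, IL-10- control array 3 had levels of 1.21 and -0.08 on the 2 probes. The 3 IL-10- HDM arrays differed from it by the same -5.64 and -6.13. Within slide 1 alone, the sort in control mice gave 1.24 and 1.27.

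The other Ikzf1 probes scattered far more and passed no test. On A_55_P2023607, which belongs to another annotated transcript, the level was -0.01, 0.19 and 0.67 in IL-10+ control and -0.89, -0.47 and 0.02 in IL-10+ HDM cells. It was -1.78, -0.28 and -2.93 in IL-10- control cells and -1.82, -0.10 and -5.46 in IL-10- HDM cells, the last one undetected. Control groups did not overlap, as for 4.83% of all tested probes in this direction, while the HDM groups did. The sort difference was 1.95 (SE 1.153) in control mice and 2.01 (SE 1.153) in HDM mice, and its averaged value of 1.98 (SE 0.815) had an adjusted p of 0.5. Without IL-10- HDM array 3 the HDM value was 0.51, and with the slide as a block it was 0.11, against 1.32 in control mice.

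The most 3′ Ikzf1 probe varied as widely within groups as between them. On A_66_P124139, the level was 0.83, -2.76 and -1.81 in IL-10+ control and -4.27, -2.17 and 0.14 in IL-10+ HDM cells. It was -1.68, -6.09 and -0.60 in IL-10- control and -2.23, -2.70 and -6.05 in IL-10- HDM cells. Of these, IL-10+ HDM array 1, IL-10- control array 2 and IL-10- HDM array 3 were undetected. All groups overlapped, and the averaged sort difference of 1.55 (SE 1.193) had an adjusted p of 0.729. Leaving out IL-10- control array 2 gave 0.73, and the difference in control mice went from 1.54 to -0.10.

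Within Ikzf1, fitted sort differences in HDM mice were unequal between probes. The finger probe's difference in HDM mice exceeded that of A_55_P2023607 by 3.84 (SE 0.966) and that of A_66_P124139 by 4.29 (SE 1.548). In control mice the same gaps, finger probe minus other probe, were -0.92 (SE 0.966) and -0.52 (SE 1.548), no larger than their SE. The spread of 4.29 among the 3 Ikzf1 probes was larger than that of 96.7% of the 1653 genes with 3 tested probes, whose median was 1.31. For the averaged sort it was 1.89, larger than 88.4% of those genes. These gaps were computed on probes picked with results known, rest on an Ikzf1 finger signal detected on 1 of 3 IL-10- HDM arrays, and have no test. With the slide as a block, the HDM difference of A_66_P124139 was 4.84 (SE 2.928) against 6.49 (SE 1.139) for the finger probe, and their averaged gap was 0.12 (SE 1.855) in place of 1.89 (SE 1.094). These slide block values rest on IL-10- control array 3, the only array of its group on slide 2.

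Within Ikzf4, the second detected probe passed no test. On A_55_P2119917, the level was -2.92, -2.32 and -3.17 in IL-10+ control and -2.29, -2.0 and -2.76 in IL-10+ HDM cells. It was -3.18, -2.71 and -1.68 in IL-10- control and -3.81, -4.79 and -3.69 in IL-10- HDM cells, with array 2 of the last group undetected. IL-10- HDM arrays lay below those of both groups they are compared with, a separation seen in 12.1% of all tested probes for the sort in HDM mice and in 6.83% for HDM in IL-10- cells. The differences were 1.75 (SE 0.492, adjusted p = 0.223) and -1.57 (SE 0.492, adjusted p = 0.39). In control mice its sort difference was -0.28, against 0.71 for the finger probe, and for HDM in IL-10+ cells it was 0.45, against -0.31. In HDM mice the finger probe's sort difference was larger by 3.66 (SE 0.562) as fitted, and by 1.67 with its bound of 3.42 in place of the fitted value. Neither value is a bound on the gap, because A_55_P2119917 was itself undetected on IL-10- HDM array 2. How much of the gap comes from signals at the floor was not tested. Between the finger probes of the 2 genes, the fitted gap was 0.44 (SE 0.719) in HDM mice, 0.32 (SE 0.719) in control mice and 0.38 (SE 0.509) on average, smaller than its SE in each. With normexp background correction, which raises dim signals, the averaged gap was 0.98 (SE 0.151), and the differences in HDM mice were 3.21 and 1.65.

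**Figure D3:**
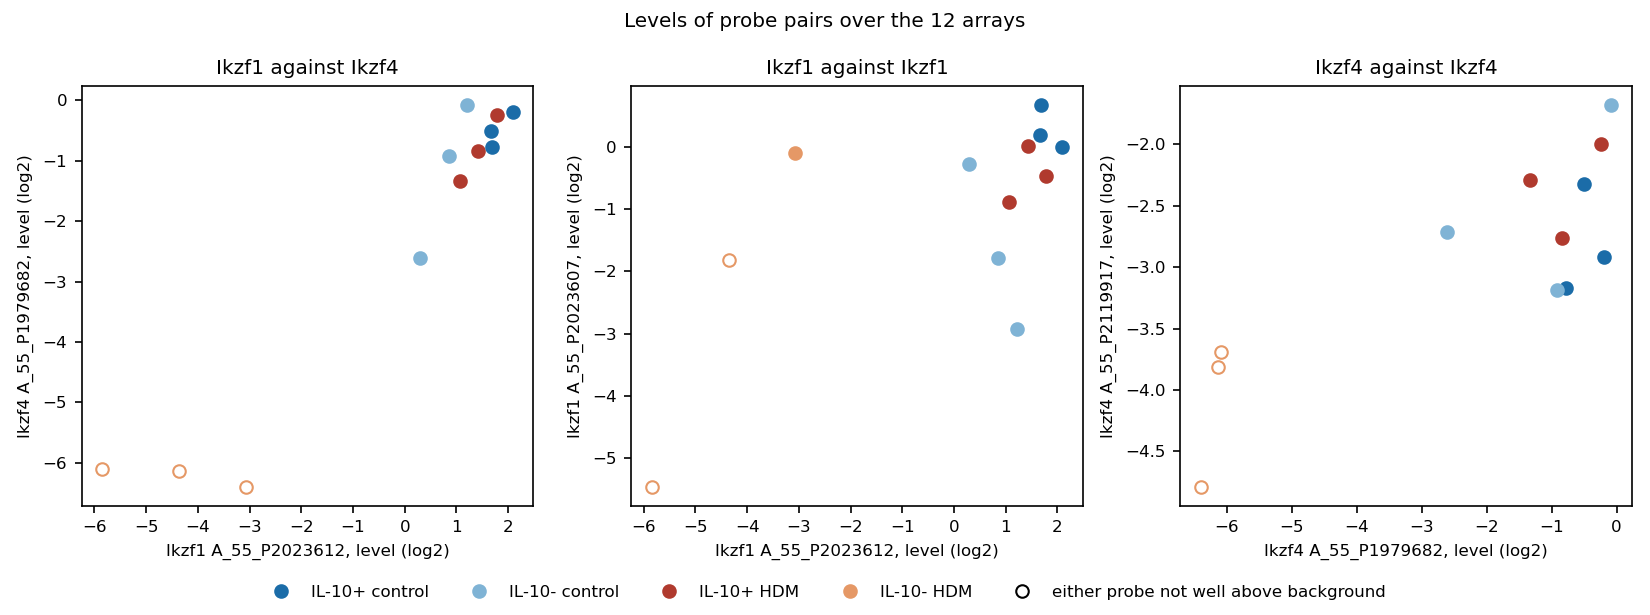
Levels (log2 of signal over the array's 75th percentile) of 3 pairs of probes on the 12 arrays, coloured by group; open circles mark arrays on which either probe was not well above background. The left panel sets the Ikzf1 finger probe against the Ikzf4 finger probe, the others set each against another probe of its own gene; IL-10- HDM arrays lie apart at the lower left of the left panel, and over the remaining 9 arrays r was 0.819, 0.382 and 0.311 from left to right.

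Correlations between family probes across arrays passed no adjusted test. Because the IL-10- HDM arrays form a cluster of their own, correlations were taken over the other 9 arrays, for all 28 pairs of tested family probes. For the 2 finger probes, Pearson's r was 0.819 (exact permutation p = 0.00796, 0.077 adjusted over the 28 pairs). Spearman's rho was 0.717 (exact permutation p = 0.0369, 0.678 adjusted over the 28 pairs). Without the 2 arrays farthest from the median of the Ikzf1 probe, r was 0.46. Leaving out a probe's extremes narrows its range and tends to lower r, so this does not show that the relation rests on those arrays. The Ikzf1 finger probe gave r = 0.382 with A_55_P2023607 and 0.701 with A_66_P124139, and the Ikzf4 finger probe gave 0.311 with A_55_P2119917. The Ikzf4 finger probe correlated about as strongly with Ikzf1 A_66_P124139 (0.81) and Ikzf5 A_66_P123989 (0.788). No pair had an adjusted p under 0.05. These arrays share group, slide and scaling, and the difference between these correlations was not tested.

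Aiolos RNA was detected on every array and its level overlapped between all groups. On Ikzf3 A_55_P2113598, the level was 1.05, -0.49 and 1.16 in IL-10+ control, 0.63, 0.31 and 0.56 in IL-10+ HDM, -0.73, 1.14 and 0.78 in IL-10- control and -1.91, 0.01 and 0.79 in IL-10- HDM cells. The 3 IL-10+ HDM arrays lay closest together, and a single array was lowest in each of the other groups. The averaged sort difference was 0.52 (SE 0.534, adjusted p = 0.801), and those in control and HDM mice were 0.18 (SE 0.755) and 0.87 (SE 0.755). The difference of HDM against control was -0.07 (SE 0.755) in IL-10+ and -0.76 (SE 0.755) in IL-10- cells. An SE this large leaves differences of 1 or more undetectable for this probe, so equal levels are not shown.

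No difference of the Pegasus probes passed the test. On Ikzf5 A_66_P123989, the level was 0.77, 1.21 and 0.72 in IL-10+ control, -0.17, 0.56 and 0.13 in IL-10+ HDM, 1.03, -0.43 and 1.14 in IL-10- control and 1.12, -0.72 and -4.78 in IL-10- HDM cells. The undetected value of -4.78, on the third IL-10- HDM array, set the group mean: the sort difference in HDM mice was 1.63 (SE 1.183, adjusted p = 0.55), and -0.03 without that array. IL-10+ HDM arrays lay below all IL-10+ control arrays, as for 3.9% of tested probes, with a difference of -0.72 (SE 1.183, adjusted p = 1). On A_52_P582261, 1116 bases further along the transcript, the level was -1.60, 0.45 and -0.93 in IL-10+ control, -0.96, -1.16 and -0.63 in IL-10+ HDM, -0.82, 0.83 and -0.80 in IL-10- control and 0.04, 0.30 and 1.35 in IL-10- HDM cells. Here IL-10+ HDM arrays lay below all IL-10- HDM arrays, as for 10% of tested probes, with a difference of -1.48 (SE 0.639, adjusted p = 0.367). It was the only tested family probe with a negative averaged sort difference, at -0.96 (SE 0.452, adjusted p = 0.558). The gap between the Ikzf5 probes in HDM mice was 3.12 (SE 1.734), which rests on that undetected array. For HDM in IL-10+ cells both probes were negative, at -0.72 and -0.22.

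Ordered by group mean, the finger probes of Ikzf1 and Ikzf4 ran IL-10+ control, IL-10+ HDM, IL-10- control and IL-10- HDM from high to low. Arrays of the first and second groups in this order overlapped on both probes, and so did those of the second and the third. On the Ikzf1 probe, 1 IL-10- control array, at 1.21, lay above the lowest IL-10+ HDM array, at 1.06. Only the step to IL-10- HDM cells left a gap between the arrays on both probes. IL-10- HDM arrays lay below all IL-10- control arrays in 6.83% of all tested probes.

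Processing changed the size of the finger probe differences more than their sign. In HDM mice the Ikzf1 sort difference ran from 3.21 with normexp background correction, which raises dim signals by an offset, to 6.52 without IL-10- HDM array 2. For the Ikzf4 probe it ran from 1.65 with normexp, where its adjusted p was 0.127, to 7.10 with the slide as a block. Scaling to each array's median moved all probes of the HDM sort by -0.797. The median of all tested probes was 0.23 before and -0.57 after this change, and differences relative to that median were by construction the same.

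**Figure D4:**
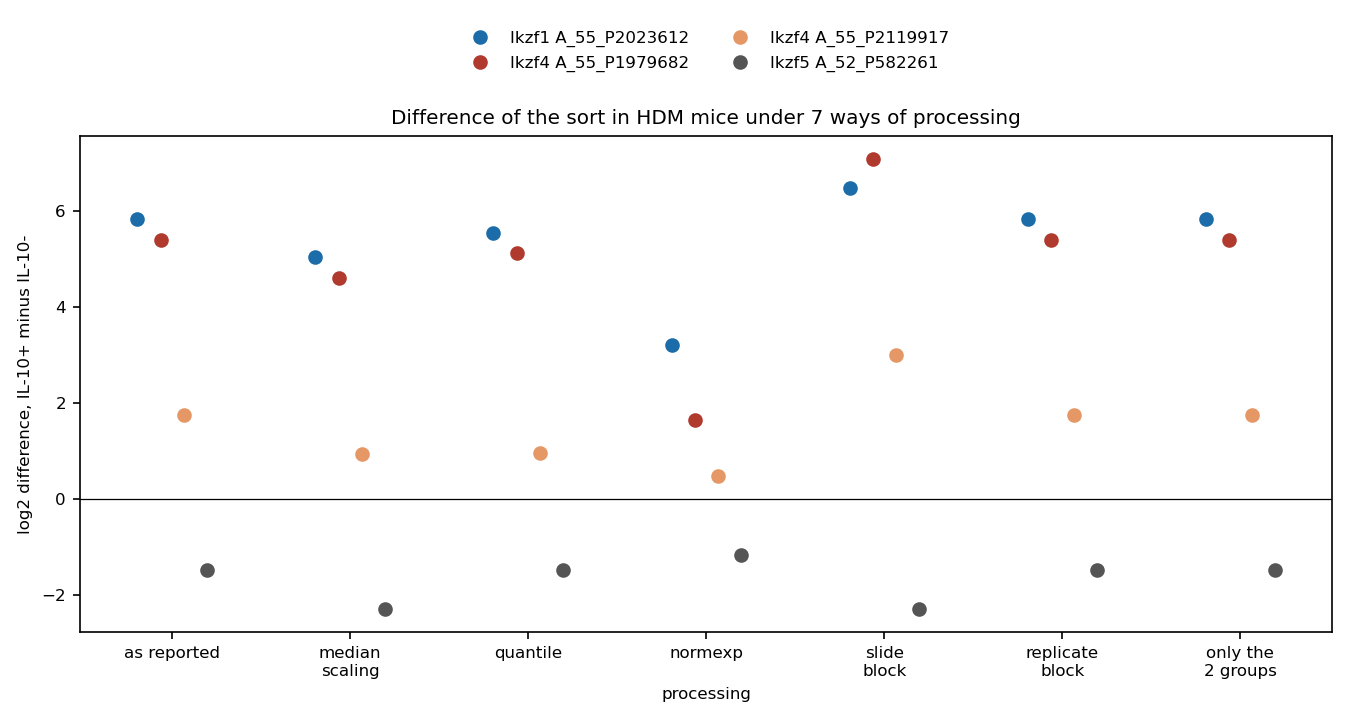
Difference of the sort in HDM mice (y axis, IL-10+ minus IL-10- on the log2 scale) for 4 Ikaros family probes under 7 ways of processing (x axis). The finger probes stay above 0 throughout, between 3.21 and 6.49 for Ikzf1 and between 1.65 and 7.10 for Ikzf4, and the Ikzf5 probe A_52_P582261 stays below 0.

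Some probes outside the family had array patterns most like those of its members over the 12 arrays. For the Ikzf1 finger probe these were probes of Whsc1, a histone methyltransferase (r = 0.982), Dtx3l, a ubiquitin ligase (r = 0.969), and the Ikzf4 finger probe (r = 0.958), at place 3 of 37648 probes. Over the 9 arrays without IL-10- HDM cells the same values were 0.452, 0.765 and 0.819. For the Ikzf4 finger probe they were Gsx1, a homeobox gene (0.965, and 0.949 over the 9 arrays), Ikzf1, and Dusp22, a phosphatase (0.957, and 0.657). Ikzf3 was most like Slc5a10, a sugar transporter gene (0.927, and 0.835), Rab8b, a small GTPase (0.908, and 0.777), and H2afy, a histone variant (0.895, and 0.933). Ikzf5 A_66_P123989 was most like Brox (0.982, and 0.881), Zfp422 (0.976, and 0.781) and Med1, a Mediator subunit (0.976, and 0.72). They stood at places 1 to 4 of 37648 correlations each, with probes that carry no ordinary gene symbol passed over, and describe these arrays only.

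Partners and targets of the family gave no called probe. Of 28 probes for 17 NuRD and corepressor genes, all tested, 0 were called in any of the 5 comparisons. Of all tested probes, 0.345% were called for the averaged sort and fewer in each other comparison. For lists of this size, 0 calls is near that share and is not a result about the lists. Their median averaged sort difference was -0.24, against 0.06 over all tested probes, and the largest among those detected on all arrays were Rbbp7 A_55_P2123822, a histone-binding subunit, at -0.98 (SE 0.359, adjusted p = 0.436) and Mta3 A_66_P114585 at -0.94 (SE 0.586, adjusted p = 0.666). The other Mta3 probes stood at 2.60 (A_55_P1971347) and 0.73 (A_55_P2022094), and the other Rbbp7 probe at -0.59 (A_55_P2080542). The cereblon ubiquitin ligase degrades Ikaros and Aiolos under immunomodulatory drugs in human cells, and casein kinase 2 phosphorylates Ikaros. Of 17 tested probes for this ligase and kinase, 0 were called and the median was -0.18. Ddb1, the ligase's adaptor, stood at -0.80 (SE 0.405, adjusted p = 0.592) and Csnk2b at -0.53 (SE 0.479, adjusted p = 0.769). Of 21 tested probes of known Ikaros and Aiolos target genes, 0 were called and the median was 0.18. Blk, a B cell kinase, stood at 1.14 (SE 0.329, adjusted p = 0.272) and Il2, a cytokine gene, at -1.14 (SE 0.385, adjusted p = 0.385).

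B cell transcription factors that act with Ikaros also gave no call. Of 18 tested probes for 13 genes, 0 were called in any of the 5 comparisons, against at most 0.345% of all. This is near that share and not a result about these genes. Their median was 0.48 for the averaged sort, 0.81 for the sort in HDM mice against 0.23 over all tested probes, and -0.88 for HDM in IL-10- cells against -0.10. Among those detected on all arrays, Ets1 A_52_P194250 stood at 0.57 (SE 0.918, adjusted p = 0.875) and Pax5 A_55_P2126394, the factor that maintains B cell identity, at 0.39 (SE 0.31, adjusted p = 0.737). The other Pax5 probe stood at -0.45, and the other Ets1 probe, A_52_P232830, at 1.835 (SE 1.436, adjusted p = 0.735). Chosen after its values were seen, Bach2 A_55_P1956370, a repressor of plasma cell fate detected on 11 arrays, gave 5.58 (SE 1.375, adjusted p = 0.17) for the sort in HDM mice and -5.00 for HDM in IL-10- cells. The other tested Bach2 probe, A_66_P114768, detected on 8 arrays, gave 1.88 (SE 1.145, adjusted p = 0.487) and -1.54 in these comparisons.

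Among markers of cells that could share the sort, 0 probes were called for B cells (13 tested), T cells (10), NK cells (4) and monocytes and dendritic cells (16). Of all tested probes, at most 0.345% were called in any comparison, so 0 calls in these lists is near that share. The summed T cell marker signal, in units of each array's 75th percentile, was 5.34 to 9.11 in IL-10+ control, 9.03 to 10.5 in IL-10- control, 6.79 to 8.95 in IL-10+ HDM and 5.37 to 7.68 in IL-10- HDM cells. The B cell sum was 119 to 176, 106 to 174, 149 to 188 and 173 to 284 in the same order. The NK cell sum was 1.05 to 2.21, 1.41 to 4.33, 2.02 to 3.36 and 2.39 to 3.31, and the monocyte and dendritic cell sum 69.4 to 91.4, 74.3 to 106.6, 82.2 to 87.8 and 86.9 to 100.8, in that order. Of the 16 monocyte and dendritic cell probes, 13 were above 0 for the sort in HDM mice (median 0.47 against 0.23 over all tested probes) and 13 were below 0 for HDM in IL-10- cells (median -0.88 against -0.10). The marker probes of Emr1, Cd28 and Cd247 named next were chosen after their values were seen. Emr1 A_55_P2018934, a macrophage marker, gave 4.06 (adjusted p = 0.0537) and -3.70 in these comparisons. The other tested Emr1 probe, A_55_P2144386, gave 2.88 (adjusted p = 0.298) and -3.49. Cd28 A_55_P1979491, a T cell costimulatory receptor, gave 3.0 (adjusted p = 0.27) and -3.65, and Cd247 A_55_P2212968, a T cell receptor chain, gave 2.33 (adjusted p = 0.332) and -3.34. The T cell list as a whole did not follow them. Of its 10 tested probes, 7 were above and 3 below 0 for the sort in HDM mice (median 0.16 against 0.23). For HDM in IL-10- cells, 5 were above and 5 below 0 (median -0.04 against -0.10). The part of these markers in the finger probe differences was not tested. Of 5 tested plasma cell marker probes, 1 was called for the averaged sort, against 0.345% of all. Igj, the J chain of secreted antibody, was higher in IL-10+ cells by 6.84 (SE 0.627, adjusted p = 0.00614). The others, named so that the whole list is shown, did not share a direction. They stood at 2.08 (Mzb1, adjusted p = 0.546), 0.29 (Prdm1), -0.29 (Xbp1) and -1.08 (Sdc1). The plasma cell sum was 5.49 to 13.2 in IL-10+ control, 1.6 to 3.8 in IL-10- control, 6.17 to 9.36 in IL-10+ HDM and 2.24 to 4.09 in IL-10- HDM cells. This sum moved with the sort in both kinds of mice, and its part in the finger probe differences was not tested.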

How the data were processed

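Per the labels' protocols, cDNA made from bead-isolated mRNA of few cells was amplified by PCR and 250 ng were labelled with Cy3. PCR amplification can change the relative signal of probes at different places of a transcript. Per the file headers, 1-colour Agilent arrays annotated on mm9 were read with Feature Extraction 10.7.3.1. The deposited processed signal is an intensity that the authors' scanner software background-subtracted and detrended within each array, with substitute values for low signals and no scaling between arrays. Deposited flags of detection, saturation and outliers are other per-spot values, per the file headers. A further deposited table gives a ratio, each spot's processed signal over its array's median (found by recomputation, largest deviation 0.00077%), and was not used further. Arrays give no counts, so their number limits the precision.

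From these, log2 processed signal minus each array's 75th percentile was computed per probe. Probes detected on at least 3 of 12 arrays were tested (37649 probes). Another 87 were left out because every spot was marked an outlier on some array. limma 3.58.1 in R 4.3.3 fitted 1 mean for each of 4 groups (8 residual and 2.15 prior degrees of freedom, prior SD 0.715). Benjamini-Hochberg adjustment ran over all tested probes, and a probe was called at an adjusted p under 0.05. There were 6 comparisons. The fit was tested on simulated data. Correlations used SciPy 1.17.1, with exact permutation over the pairings, two-sided.

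Named were every family probe, Il10, list probes that were called or, in lists with none called, up to 2 with the largest averaged sort difference among those detected on all arrays, and the 3 probes of other genes most like each gene's highest-mean tested probe. Marker lists without a call are given as sums, and probes named outside these rules are marked as such. The members, lists and tests were chosen with earlier results of these data known. Alternatives were other scaling, background correction and filters, the slide or replicate number as a block, single slides, only the groups compared, and each array left out.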

Additional observations from a re-analysis of the deposited data

How the results depend on the processing

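All log2 differences of the finger probes of Ikzf1 and Ikzf4 that were called kept their sign under every alternative run. Counts of called probes did not keep their size. As reported they were 130 for the averaged sort, 6 for the sort in control mice, 74 for the sort in HDM mice, 2 for HDM in IL-10+ cells and 27 for HDM in IL-10- cells, with 2, 0, 2, 0 and 2 of them in the family. Median scaling gave 11, 0, 6, 1 and 5 in that order, with 1 family probe called for the averaged sort and 1 for HDM in IL-10- cells. Quantile normalisation gave 10 in control mice, 42 in HDM mice and 4 for HDM in IL-10+ cells. Normexp gave 11 in control mice, 35 in HDM mice, 0 for HDM in IL-10+ cells and 4 for HDM in IL-10- cells, with 1 family probe, that of Ikzf1, in each of the averaged sort, HDM mice and IL-10- cells. Without a filter, 1 probe was called for HDM in IL-10+ cells. Over probes detected on all arrays, to which neither finger probe belongs, counts were 40, 1, 8, 0 and 0, with 0 family probes. With the slide as a block they were 0 for the averaged sort, 0 in HDM mice, 1 for HDM in IL-10+ cells and 0 for HDM in IL-10- cells, with 0 family probes. Slide 1 alone gave 1 for HDM in IL-10+ cells, and slide 2 alone 0 for HDM in IL-10- cells, with 0 family probes. Fitting only the groups compared gave 0, 118, 0 and 0 for the 4 comparisons of 2 groups, with 1 family probe (Ikzf4) in HDM mice and 0 for HDM in IL-10- cells.

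Correlations of same-numbered arrays' deviations ran from -0.116 to 0.123 over 18 pairs, 2 of them over 0.1. Those of differently numbered arrays ran from -0.162 to 0.096 over 36 pairs, 0 of them over 0.1. Neither these values nor the labels settle whether replicate numbers pair the arrays. With the replicate block, counts were 66, 2, 28, 1 and 1, with 1 family probe (Ikzf1) for the averaged sort, and 0 for HDM in IL-10- cells. Leaving out each array gave 51 to 276 for the averaged sort, 0 to 9 in control mice, 3 to 392 in HDM mice, 0 to 3 for HDM in IL-10+ cells, 2 to 255 for HDM in IL-10- cells and 0 to 22 for the difference of the sort contrasts. Family calls ran from 1 to 2 for the averaged sort, and from 0 to 2 in HDM mice and for HDM in IL-10- cells. The gap between Ikzf4 probes A_55_P1979682 and A_55_P2119917 was 0.85 with normexp. With the slide block, the gaps of Ikzf1 A_55_P2023607 to A_55_P2023612 and A_66_P124139 were -3.15 and -3.03, and that of A_55_P2023612 to A_66_P124139 was 0.12. The cause of these shifts was not tested. Signal near background limits the finger probes in IL-10- HDM cells, where 1 of 6 values was detected.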
